A study of Mus musculus with 8 samples.

Results

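Antioxidant, glutathione and iron handling genes were followed in mouse MLL-AF9 leukemia, a set of 43 genes defined by a list of names. Of these names, 42 matched a row of the count table of 12823 rows, and all 42 passed the filter on low counts. Gpx7, a glutathione peroxidase of the endoplasmic reticulum, was not analysed here. The set covers the NRF2 regulators, the enzymes that make, reduce and use glutathione, the thioredoxin and peroxiredoxin systems, the superoxide dismutases and catalase, the ferritins with their regulators, and the phagocyte NADPH oxidase.

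MLL-AF9 joins the mixed lineage leukemia gene to AF9 and drives acute myeloid leukemia (AML) when it is introduced into bone marrow progenitors. The 4 new AML libraries came from freshly generated MLL-AF9 cells that had caused leukemia in sublethally irradiated mice at around 2 months. The 4 aggressive AML libraries came from leukemia cells passed through 5 serial transplantations, done in non-irradiated recipients, and described as derived from the newly generated cells. Cells of both groups carried MLL-AF9 together with green fluorescent protein (GFP), were grown in C57BL/6 mice and were sorted as GFP+ cells from bone marrow, so that no group lacked the fusion gene. The mice were 8 to 12 weeks old, an age given for all experiments together and not by group. The study gives male mice for both groups. The labels call the replicates biological without tying them to animals, so the p-values measure the spread between these libraries only.

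Total counts ranged from 7805544 to 9697777 per library. Levels are given in CPM, the reads of a gene scaled to a common library total after adjustment for library composition. The summed counts of 4 Y-linked genes, Ddx3y, Eif2s3y, Kdm5d and Uty, ranged from 2315 to 2574 in the new AML libraries and were 0 in every aggressive AML library, although the aggressive cells are described as descending from the new ones. Serial transplantation, irradiation of the recipients, a different origin of the cells and a loss of that chromosome cannot be told apart in any comparison given here. All 14 genes of a myeloid leukemia list, among them Ptprc, Itgam, Mpo, Hoxa9 and Meis1, passed the filter, with a summed level of 8552 to 9197 CPM in new AML and 8582 to 11006 CPM in aggressive AML. Of these 14, 7 were called by the edgeR test described with the members, with log2 fold changes of aggressive over new AML of 0.65 for Kit, 0.62 for Mef2c, 0.52 for Elane, 0.51 for Ctsg and 0.45 for Meis1, and of -0.61 for Itgam and -0.59 for Hoxa10. Their part in the values of the set was not tested.

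Cells keep reactive oxygen in check with a small number of linked systems. Superoxide dismutases turn superoxide into hydrogen peroxide, and catalase, the glutathione peroxidases and the peroxiredoxins remove the peroxide. Glutathione and thioredoxin supply the electrons for the glutathione peroxidases and the peroxiredoxins and are themselves reduced at the expense of NADPH. The transcription factor NRF2, encoded by Nfe2l2, is held in the cytoplasm and targeted for degradation by KEAP1, and when it is released it activates many of these genes through antioxidant response elements. Iron links the systems, because free iron turns peroxide into radicals, which ferritin prevents by storing the metal. Myeloid cells in addition produce superoxide on purpose, through the NADPH oxidase used in host defence.

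Glutathione reductase (Gsr), Aifm2, Mgst1, Glrx, Prdx6 and Gstm1 were higher in aggressive AML, and Hmox1, Ncf4 and Cybb were lower. In the edgeR quasi-likelihood test, 9 of the 42 members (21.4%) had an adjusted p under 0.05, against 18.4% of all 12494 genes tested. Of the members, 6 (14.3%) were higher, against 8.15% of all genes, and 3 (7.14%) were lower, against 10.2%. The median log2 fold change, given throughout as aggressive AML over new AML, was 0.02 over the members and 0.00 over all genes, and the median absolute log2 fold change was 0.13 over the members and 0.19 over all genes. In 21 members the log2 fold change was under 0.1 in absolute size. The groups did not overlap for 7 members (16.7%), against 21.8% of all genes, and each of the 7 was among the 9 that passed the test. Without aggressive AML replicate 1 or 2, or without new AML replicate 2, the lower members numbered 1 in place of 3.

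**Figure D1:**
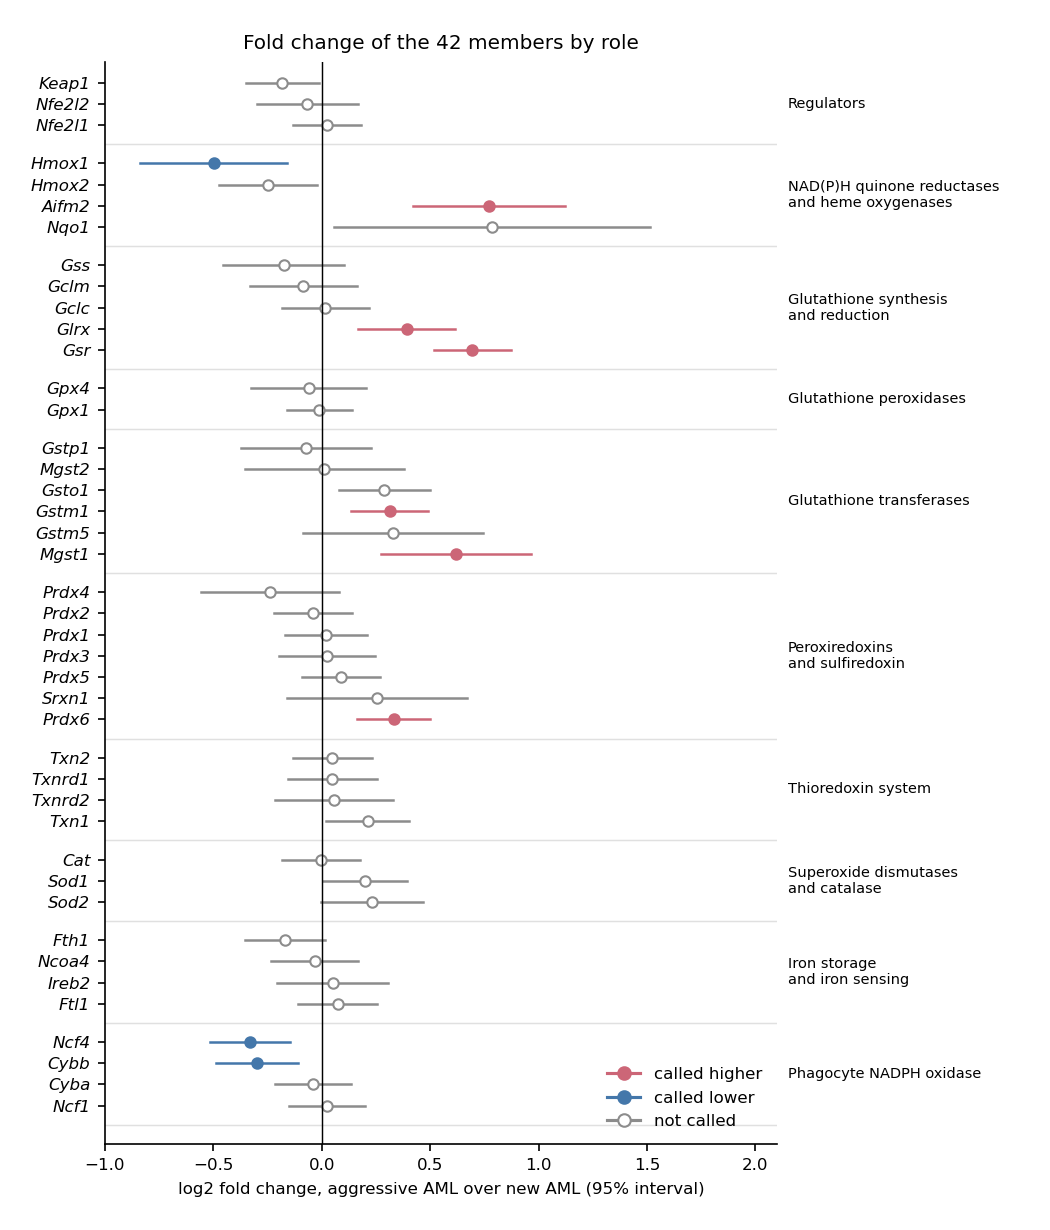
Log2 fold change of each of the 42 members, aggressive AML over new AML, on the horizontal axis, with members grouped by role on the vertical axis. Points are edgeR estimates and bars their 95% intervals, with filled red points for the 6 members called higher, filled blue points for the 3 called lower and open grey points for the 33 not called, most of which lie close to 0.

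The levels of the members spanned 3 orders of magnitude. After division by exon length, Gpx1, the main cytosolic glutathione peroxidase, was the most abundant, at 1852 ± 103 CPM per kb (SD, n = 4) in new AML and 1838 ± 104 (SD, n = 4) in the aggressive libraries. Ftl1, the light chain of ferritin, followed at 749.7 ± 48.3 and 788.5 ± 88.2 CPM per kb, and its intervals of spread did not reach those of Gpx1. Below it, Cyba, Gstm1, Fth1, Sod1, Txn1 and Ncf1 formed a group between 216 and 425 CPM per kb in new AML. In new AML, Cyba, Fth1 and Gstm1 stood at 425 ± 42.2, 357 ± 46.6 and 338 ± 21.3 CPM per kb, and neighbours in that order differed by less than the sum of their SDs. Gsr followed at 148 ± 12.7 CPM per kb in new AML and reached 239 ± 21.7 in aggressive AML, where its level lay within the spread of Ncf1, at 219 ± 24.5. Nqo1, a quinone reductase and a much used reporter of NRF2 activity, was the least abundant member, at 1.26 ± 0.428 and 2.19 ± 0.809 CPM per kb. Srxn1, Aifm2, Gclm and Txnrd2 stood next to it, each between 2.71 and 6.78 CPM per kb in both groups.

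**Figure D2:**
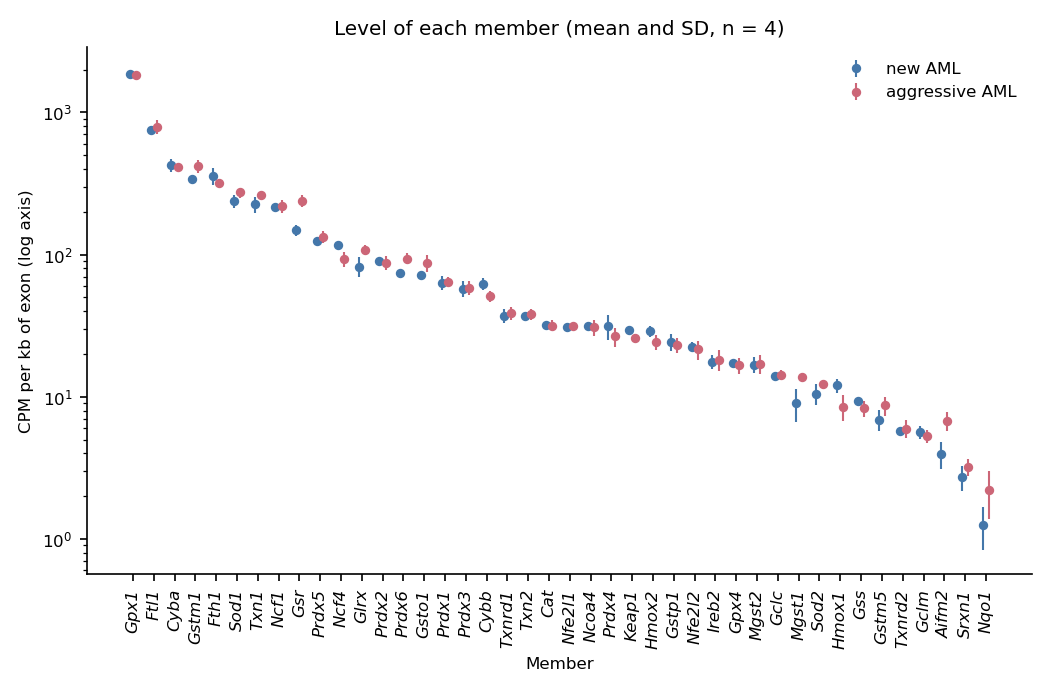
Level of each of the 42 members in CPM per kb of exon on a log axis, ordered from the most to the least abundant, with the mean and SD of the 4 libraries of new AML in blue and of aggressive AML in red. Gpx1 is highest at 1852 CPM per kb in new AML and Nqo1 lowest at 1.26.

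None of the 3 regulators passed the test. Nfe2l2 (chr2:75675513-75704663, GRCm38) was at 56.1, 58.0, 58.8 and 50.15 CPM in the new AML libraries and at 49.6, 56.7, 44.1 and 62.5 CPM in the aggressive AML libraries. The groups overlapped throughout, and the log2 fold change was -0.07 with a 95% interval of -0.30 to 0.17. Keap1 (chr9:21229730-21239332), the inhibitor of NRF2, was at 135.4, 121.5, 142.9 and 130.4 CPM in new AML and at 113.5, 120.0, 108.5 and 125.1 CPM in aggressive AML. Only the highest aggressive library reached into the new AML range, but the log2 fold change of -0.18 did not pass the test (edgeR adjusted p = 0.122). Keap1 shares exon bases with Gm16754 on the opposite strand, and whether the counting used strand is not given in the sources used here. Nfe2l1, an NRF2 relative that also controls proteasome genes, had a log2 fold change of 0.02, with a 95% interval of -0.13 to 0.18. The log2 ratio of Nfe2l2 to Keap1 counts within a library, which is free of library scaling, averaged -1.25 ± 0.131 over the new AML libraries and -1.14 ± 0.130 over the aggressive ones, a difference of 0.10 (two-sided exact permutation test over 70 choices of libraries, p = 0.314, 0.571 after adjustment over 6 ratios).

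The promoters of the set were searched for the core of the antioxidant response element, TGACNNNGC, on both strands of a window from 250 bases before to 50 bases after each start site in the RefSeq table for GRCm38.p6. The motif was present in 9 of the 37 members with a window (24.3%), against 14.0% of 27025 genes in the table and 16.9% of 9683 tested genes. Of the called members, 5 had a window and 1, Mgst1, held the motif, which is a description of the sequence and not of binding. The Mgst1 stretch at chr6:138140451-138140499 is shown because it belongs to a called member, and those of Gclm (chr3:122245403-122245451), Prdx1 (chr4:116685446-116685494) and Txnrd1 (chr10:82859094-82859142) because they belong to glutathione synthesis, peroxide removal and thioredoxin reduction and did not pass the test, a choice made after their values were seen. All are read 5′ to 3′ on the plus strand, with the motif in capitals, which lies there as its reverse complement.
Mgst1: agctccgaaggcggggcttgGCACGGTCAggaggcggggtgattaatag
Gclm: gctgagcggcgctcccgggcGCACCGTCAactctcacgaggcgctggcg
Prdx1: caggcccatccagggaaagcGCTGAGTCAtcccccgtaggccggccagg
Txnrd1: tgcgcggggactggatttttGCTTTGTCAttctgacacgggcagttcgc
The motif lay 56 bases before an annotated start site in Mgst1, 134 in Gclm, 133 in Prdx1 and 92 in Txnrd1. In Prdx1 alone of these 4 it overlapped a match to the AP-1 motif TGANTCA. The log2 fold changes of the 4 genes, in the order of the sequences, were 0.62, -0.08, 0.02 and 0.05, so that only the first passed the test.

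Gsr and Glrx, which act in the reduction and use of glutathione, rose, and the enzymes of its synthesis did not pass the test. Gsr (chr8:33653238-33698162), which returns oxidised glutathione to its reduced form with NADPH, was at 387.6, 402.1, 436.6 and 354.7 CPM in new AML and at 607.2, 697.3, 679.2 and 575.5 CPM in aggressive AML. Every aggressive library lay far above every new one. The level was 1.62 times higher, with a log2 fold change of 0.69 ± 0.0836 (SE) and an edgeR adjusted p = 4.70e-05, the lowest p of the set. Glrx (chr13:75839885-75850151), glutaredoxin 1, which uses glutathione to reduce protein disulfides, was at 93.6, 112.3, 137.3 and 106.9 CPM in new AML and at 144.6, 142.2, 164.8 and 139.2 CPM in aggressive AML. The groups were separate, but the highest new library came close to the lowest aggressive one. The log2 fold change was 0.39 ± 0.105 (edgeR adjusted p = 0.0169), and the call was lost without new AML replicate 1 (adjusted p = 0.0546) or new AML replicate 4 (0.0516).

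For the synthesis enzymes the lack of a pass does not show equal levels, as their intervals leave room for a change. Gclc and Gclm, the catalytic and modifier subunits of glutamate-cysteine ligase, had log2 fold changes of 0.02 (95% interval -0.18 to 0.22) and -0.08 (-0.33 to 0.16), and Gss, glutathione synthetase, -0.18 (-0.46 to 0.10). Gss overlaps exons of Acss2, Gssos1 and Gssos2 on the opposite strand. The log2 ratio of Gclm to Gclc averaged -0.62 ± 0.204 over the new libraries and -0.72 ± 0.226 over the aggressive ones (exact permutation p = 0.571). Neither measured glutathione peroxidase passed the test. Gpx4 (chr10:80047166-80056439), which removes lipid peroxides from membranes and restrains ferroptosis, was at 22.3, 21.5, 23.3 and 20.8 CPM in new AML and at 21.6, 21.8, 23.97 and 17.2 CPM in aggressive AML. The groups overlapped, and the log2 fold change was -0.06 (95% interval -0.32 to 0.21). For Gpx1 it was -0.01 (-0.16 to 0.14).

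Among the 6 glutathione transferases, 2 were higher and 0 lower. Mgst1 (chr6:138140527-138156755), a membrane-bound transferase with peroxidase activity toward lipid peroxides, was at 11.1, 17.4, 21.4 and 16.2 CPM in new AML and at 24.6, 23.8, 26.6 and 26.2 CPM in aggressive AML. The aggressive libraries were tightly grouped above the new ones, which varied more, with an SD of 4.26 against 1.31 CPM. The level was 1.53 times higher, at a log2 fold change of 0.62 ± 0.162 (edgeR adjusted p = 0.0156). Gstm1 (chr3:108012250-108017973), a cytosolic transferase of the mu class, was at 465.8, 495.0, 462.5 and 424.1 CPM in new AML and at 658.6, 523.6, 584.9 and 529.8 CPM in aggressive AML. Its groups did not overlap, and the highest aggressive library, replicate 1, stood above the rest of its group. The log2 fold change was 0.31 ± 0.0832 (adjusted p = 0.0161 by edgeR), and the call was lost without aggressive AML replicate 1 (0.0573) or new AML replicate 4 (0.0530).

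The other transferases did not pass the test. Gsto1, an omega class transferase, was at 84.3 ± 6.30 CPM in new AML and 103.0 ± 13.5 CPM in aggressive AML, with a log2 fold change of 0.29 (edgeR adjusted p = 0.0552), and it passed with DESeq2 (0.0385) and without aggressive AML replicate 4 (0.0140). Gstm5 had a log2 fold change of 0.33 with a wide 95% interval of -0.09 to 0.74, at a mean of 6.87 CPM in new AML. For Gstp1, the pi class transferase, and Mgst2 the log2 fold changes were -0.07 (-0.37 to 0.23) and 0.01 (-0.36 to 0.38). Mu and pi class transferases lie in families of similar genes, and reads shared among them could shift these values. Gstm5 also overlaps 4933431E20Rik on the opposite strand.

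Of the peroxiredoxins and sulfiredoxin, only Prdx6 passed the test. Prdx6 (chr1:161240112-161251210), which reduces phospholipid peroxides and unlike the other family members draws on glutathione, was at 192.6, 179.0, 196.0 and 174.1 CPM in new AML and at 262.0, 224.2, 234.4 and 213.6 CPM in aggressive AML. The groups did not overlap, and the level was 1.26 times higher, at a log2 fold change of 0.33 ± 0.0793 (edgeR adjusted p = 0.00897). Prdx1 and Prdx2, the cytosolic 2-Cys enzymes, had log2 fold changes of 0.02 and -0.04, mitochondrial Prdx3 and the more widely located Prdx5 0.02 and 0.09, and Prdx4 of the endoplasmic reticulum -0.24. The 95% intervals of the first 4 lay between -0.22 and 0.27, while that of Prdx4 ran from -0.56 to 0.08. Srxn1, which repairs overoxidised peroxiredoxins, was at 7.63 ± 1.503 CPM in new AML and 9.07 ± 1.26 CPM in aggressive AML, a log2 fold change of 0.25 with an interval of -0.16 to 0.67. Prdx2 overlaps exons of Rnaseh2a and Prdx5 exons of Trmt112, both on the opposite strand.

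The thioredoxin system had no called member. Txn1, cytosolic thioredoxin, was at 236.6 ± 31.1 CPM in new AML and 274.3 ± 18.2 CPM in aggressive AML, a log2 fold change of 0.21 (edgeR adjusted p = 0.112). It passed the threshold without new AML replicate 3 (0.0114), which at 282.9 CPM lay above the other new AML libraries at 216.8 to 224.6 CPM. Mitochondrial Txn2 had a log2 fold change of 0.05, and the selenoprotein reductases Txnrd1 and Txnrd2 had 0.05 and 0.06, all 3 with 95% intervals between -0.22 and 0.33. The log2 ratio of Txnrd1 to Txn1 averaged -0.64 ± 0.253 over the new libraries and -0.81 ± 0.250 over the aggressive ones (exact permutation p = 0.400).

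The superoxide dismutases and catalase did not pass the test either. Sod1 (chr16:90220762-90226333), the cytosolic copper and zinc enzyme, was at 152.2, 142.9, 176.3 and 138.3 CPM in new AML and at 177.7, 187.8, 181.1 and 154.1 CPM in aggressive AML. Of the aggressive libraries, 3 lay above all new ones and the remaining one lay within their range. The log2 fold change was 0.20 (edgeR adjusted p = 0.138), and that of the mitochondrial manganese enzyme Sod2 was 0.23 (adjusted p = 0.157), and both passed without new AML replicate 3 (0.0362 and 0.0277). The Sod2 to Sod1 log2 ratio was -1.32 ± 0.124 and -1.28 ± 0.0790 (exact permutation p = 0.514). Cat, catalase, had a log2 fold change of 0.00, with a 95% interval of -0.19 to 0.18.

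**Figure D3:**
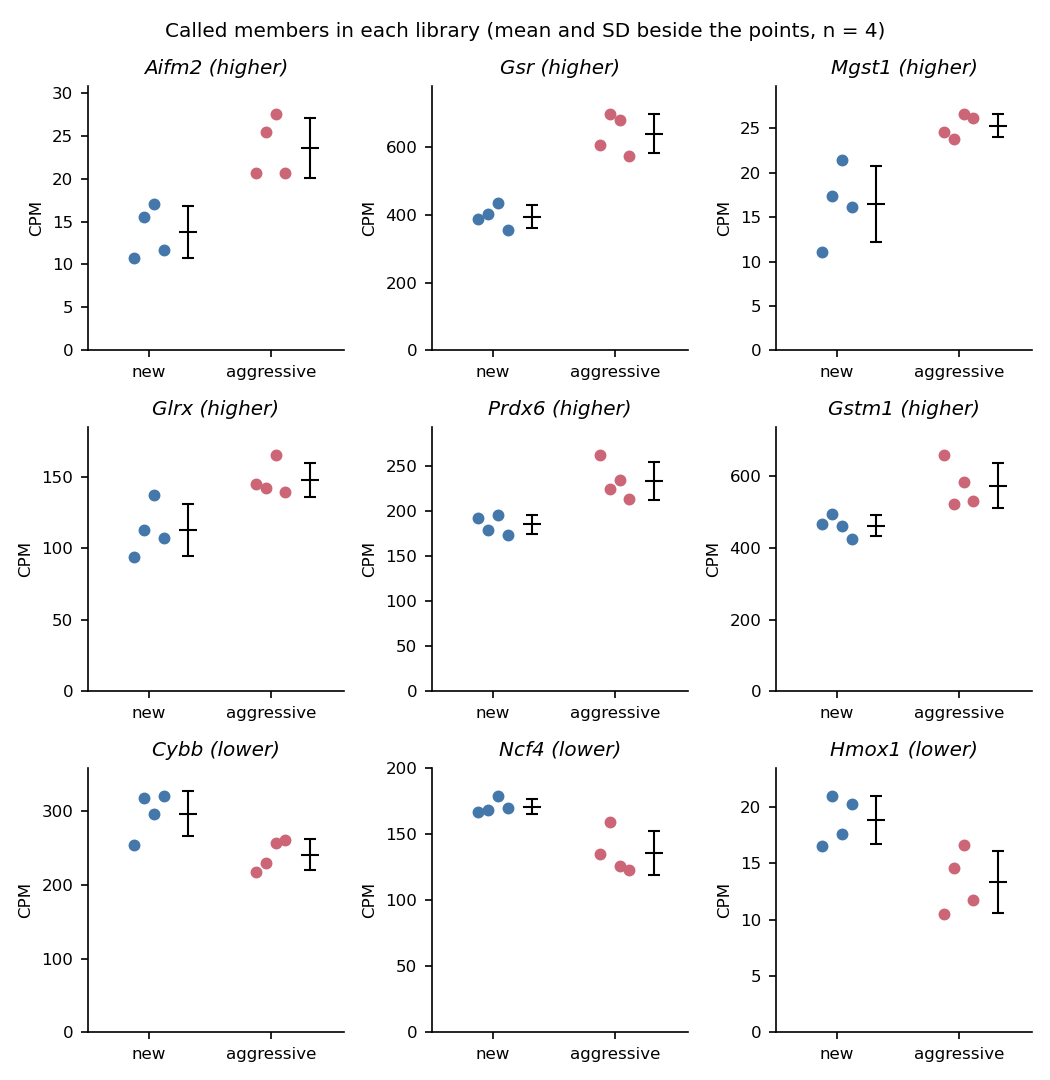
CPM of the 9 members that passed the edgeR test in each of the 4 new AML libraries (blue) and 4 aggressive AML libraries (red), with the mean and SD beside the points and each vertical axis starting at 0. The groups are separate in all panels but those of Cybb and Hmox1, and Gsr shows the widest gap, from 436.6 CPM in the highest new library to 575.5 CPM in the lowest aggressive one.

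Of the quinone reductases and heme oxygenases, Aifm2 rose and Hmox1 fell. Aifm2 (chr10:61715263-61739260), also called FSP1, regenerates reduced coenzyme Q and suppresses ferroptosis in parallel with GPX4. It was at 10.8, 15.6, 17.1 and 11.7 CPM in new AML and at 20.6, 25.4, 27.5 and 20.6 CPM in aggressive AML. All aggressive libraries lay above the new ones, and the level was 1.71 times higher, at a log2 fold change of 0.77 ± 0.164 (edgeR adjusted p = 0.00428). Aifm2 shares exon bases with H2afy2 on the opposite strand, so part of its reads could belong to that gene if strand was ignored. Nqo1 had a fold change of like size, 0.79 on the log2 scale, but did not pass the test (adjusted p = 0.123 in edgeR). Its 9 to 24 reads per new AML library and 19 to 40 reads per aggressive AML library gave a 95% interval of 0.06 to 1.51.

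Hmox1 (chr8:75093618-75100593), the inducible heme oxygenase that releases iron from heme, was at 16.5, 20.9, 17.6 and 20.3 CPM in new AML and at 10.5, 14.6, 16.6 and 11.7 CPM in aggressive AML. The highest aggressive library just reached the lowest new one. Hmox1 fell by 0.50 ± 0.159 on the log2 scale (edgeR adjusted p = 0.0410). The call was lost in 5 of the 8 fits that left out 1 library, namely without aggressive AML replicate 1, 2 or 4 or new AML replicate 2 or 4, with adjusted p-values up to 0.126. The constitutive Hmox2 had a log2 fold change of -0.25 (95% interval -0.47 to -0.02, edgeR adjusted p = 0.115), and it overlaps Cdip1 on the opposite strand.

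The iron genes of the set did not pass the test. Fth1 (chr19:9980600-9985111), the ferritin heavy chain that oxidises iron for storage, was at 639.9, 552.3, 570.7 and 463.7 CPM in new AML and at 492.3, 487.9, 516.9 and 481.2 CPM in aggressive AML. Of the new libraries, 3 lay above all aggressive ones and replicate 4 lay below them. The log2 fold change was -0.17 (95% interval -0.36 to 0.01, edgeR adjusted p = 0.186), and without new AML replicate 4 it was -0.25 and passed (adjusted p = 0.0430). Ftl1 had a log2 fold change of 0.07 (-0.11 to 0.25), and it shares exon bases with Gm10252 and Gm22133. The Fth1 to Ftl1 log2 ratio averaged -0.39 ± 0.105 over the new libraries and -0.62 ± 0.147 over the aggressive ones, a difference of -0.23 (exact permutation p = 0.0571, adjusted p = 0.343). Ireb2, an iron sensor that controls ferritin translation, and Ncoa4, the receptor that delivers ferritin to lysosomes, had log2 fold changes of 0.05 (-0.20 to 0.31) and -0.03 (-0.23 to 0.17). Processed copies of the ferritin genes exist in the mouse genome, and how reads that match several places were treated is not given in the sources used here.

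**Figure D4:**
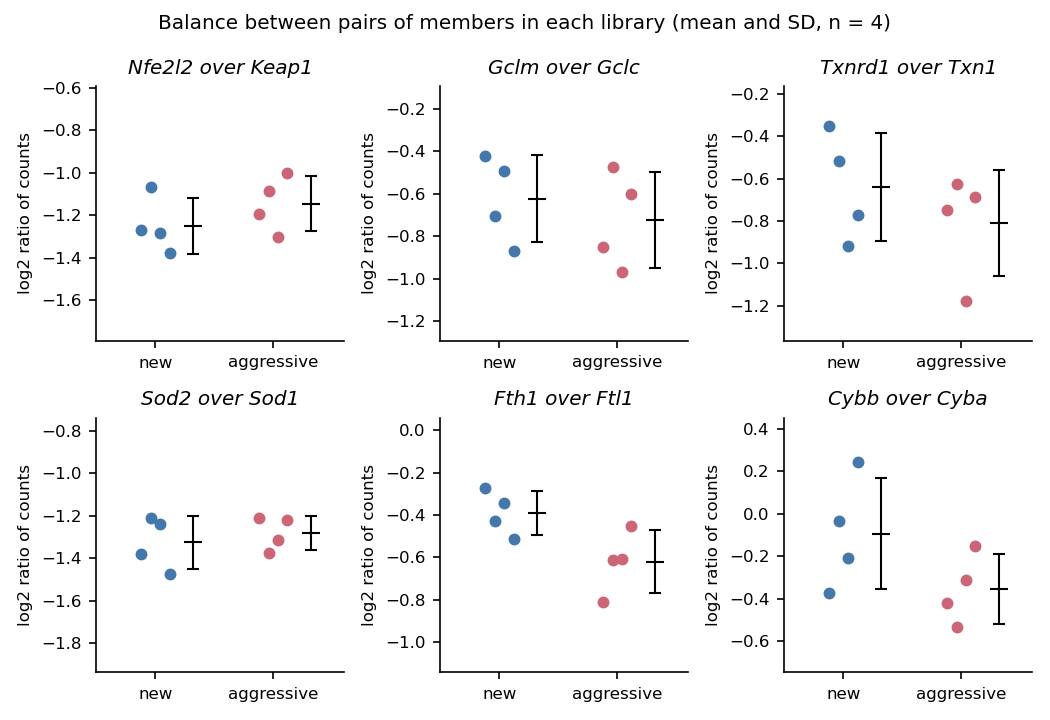
Log2 ratio of the read counts of 2 members in each library, for 6 pairs, in new AML (blue) and aggressive AML (red), with the mean and SD of 4 libraries beside the points and a vertical span of the same size in every panel. Fth1 over Ftl1 has the lowest exact permutation p of the 6, 0.0571, and its groups overlap.

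The phagocyte NADPH oxidase was split between subunits that fell and subunits that did not pass the test. Ncf4 (chr15:78244164-78262582), the cytosolic p40phox subunit, was at 166.6, 168.2, 178.8 and 170.3 CPM in new AML and at 135.3, 159.4, 125.8 and 122.9 CPM in aggressive AML. The groups did not overlap, the new libraries being close together and aggressive replicate 2 nearest to them. Ncf4 fell by 0.33 ± 0.0859 on the log2 scale (edgeR adjusted p = 0.0143). Cybb (chrX:9435252-9487766), the catalytic membrane subunit gp91phox, was at 253.6, 317.8, 295.7 and 320.1 CPM in new AML and at 217.3, 229.5, 256.6 and 261.1 CPM in aggressive AML. New AML replicate 1 lay below 2 of the aggressive libraries, so that the groups overlapped. Cybb fell by 0.30 ± 0.0885 on the log2 scale (edgeR adjusted p = 0.0284), and the call was lost without new AML replicate 2 or 4 or aggressive AML replicate 1 or 2, with adjusted p-values between 0.0780 and 0.10.

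Cyba, the p22phox partner that stabilises gp91phox, had a log2 fold change of -0.04 (95% interval -0.22 to 0.14), and Ncf1, the p47phox organiser, 0.02 (-0.15 to 0.20). The log2 ratio of Cybb to Cyba averaged -0.09 ± 0.262 over the new libraries and -0.35 ± 0.164 over the aggressive ones (exact permutation p = 0.171). In bulk RNA, fewer cells that express a gene and less RNA per cell cannot be told apart. Neutrophil markers moved with the lower members. Of 14 neutrophil markers tested, 8 were called lower and 1 higher, with a median log2 fold change of -0.93, and their summed level ran from 377.6 to 593.9 CPM in new AML and from 239.9 to 305.8 CPM in aggressive AML. Of 12 macrophage markers, 4 were tested and 1, Adgre1, was called lower. Summed over the 5 with a row, tested or not, the level was 82.9 to 145.6 CPM in new AML. It was 56.0 to 90.8 CPM in aggressive AML. The part of the neutrophil and macrophage markers in the levels of Cybb, Ncf4 and Hmox1 was not tested. Of the macrophage list, C1qa, C1qb, Siglec1, Spic, Timd4, Cd5l and Marco were not analysed here.

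Erythroid cells are rich in Prdx2 and catalase, and their markers were measured in the same libraries. Of 17 erythroid markers 8 were tested and 3 were called lower, with a median log2 fold change of -1.05. Summed over the 14 erythroid markers with a row, tested or not, the level was 32.7 to 116 CPM in new AML. It was 10.8 to 57.0 CPM in aggressive AML. The part of the erythroid markers in the values of the set was not tested. Of the lymphoid lists, 1 of 8 T cell, 2 of 7 B cell and 2 of 8 NK cell markers were tested. Cd22 was called lower and Nkg7 higher. Summed over the markers with a row, tested or not, the levels were at most 6.02, 45.4 and 33.0 CPM in any library.

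Most other genes of the same pathways did not pass the test. Of 183 further genes in 8 lists, 148 were tested and 22 (14.9%) were called, against 18.4% of all genes, 18 of them higher and 4 lower, with a median log2 fold change of 0.06. Among 20 NRF2 factors and targets outside the set, 3 were higher and 1 lower. Maff, a small MAF partner of NRF2, rose from 4.53 ± 1.15 to 10.3 ± 2.79 CPM (log2 fold change 1.19, edgeR adjusted p = 0.00336), and Htatip2 and Abcc1 rose by 0.50 and 0.33. Bach2, a repressor that competes for related elements, fell from 5.39 ± 0.437 to 0.993 ± 0.394 CPM (log2 fold change -2.42, edgeR adjusted p = 7.08e-05).

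In the glutathione list 3 of 23 tested genes were higher and 0 lower. These were Gstt2, a theta class transferase, with a log2 fold change of 0.75, Slc3a2, the heavy chain of the cystine transporter and of other amino acid transporters, with 0.52, and Gstcd with 0.37. Of 14 genes for the supply of NADPH, Mthfd1l of mitochondrial folate metabolism and Pgls of the pentose phosphate pathway were higher, with 0.43 and 0.32, and Idh1, cytosolic isocitrate dehydrogenase, fell by 0.45. In the thioredoxin and repair list 2 of 23 were higher, the metallothionein Mt1 with 0.39 and the methionine sulfoxide reductase Msra with 0.29.

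Of 18 selenoprotein genes, Selenoh and Selenos were higher, with log2 fold changes of 0.32 and 0.25. Selenop, the secreted selenium carrier, fell from 36.7 ± 13.3 to 17.8 ± 2.55 CPM (log2 fold change -1.04, edgeR adjusted p = 0.00329). Of 27 further iron genes, 3 were higher and 0 lower, with 0.46 for Bola2, which takes part in iron-sulfur trafficking, 0.31 for the heme transporter Slc48a1 and 0.31 for the mitochondrial transporter Abcb8. The transferrin receptor Tfrc had a log2 fold change of -0.02. Of 16 genes of lipid peroxidation and ferroptosis, Alox5, arachidonate 5-lipoxygenase, Vdac2 and Por were higher, with 0.58, 0.36 and 0.27. Of 7 further NADPH oxidase genes, Vav1, an exchange factor for Rac, fell by 0.22. Of these 22 calls, 10 held in all 8 fits that left out 1 library and 12 were lost in at least 1, namely 10 without new AML replicate 2, 8 each without new AML replicate 4 or aggressive AML replicate 1, 5 each without new AML replicate 1 or aggressive AML replicate 2, 2 each without aggressive AML replicate 3 or 4, and 1 without new AML replicate 3. Vav1 held in 1 of the 8 fits.

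The 33 members that did not pass the test are not thereby shown to be unchanged. In 29 of them the 95% interval lay within 0.5 of 0 on the log2 scale, and those of Nqo1, Gstm5, Prdx4 and Srxn1 reached farther. That limit is wider than the called changes of Hmox1, Glrx, Prdx6, Ncf4, Gstm1 and Cybb. An interval within it can therefore still hold a change as large as some of these. An unadjusted p under 0.05 in the edgeR test was found for 15 members, 6 more than were called. The share of all genes tested at that unadjusted limit is not given here, so the number is a description only.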

How the data were processed

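The RNA of 8 libraries was compared, 4 of new AML and 4 of aggressive AML, grouped by the sample labels. The authors purified polyadenylated RNA, aligned paired reads to mm10 with HISAT2, obtained gene counts with Rsubread and removed weakly expressed genes at a limit of 1 CPM. The deposited values are whole-number counts with a different total in each library, although the table is named for CPM, and were used as raw counts. The gene annotation and the strand setting are not given in the sources used here.

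A gene was tested if 4 or more of the 8 libraries reached 1 CPM, which kept 12494 of 12823 rows and removed 329. The test was the two-sided quasi-likelihood test of edgeR 4.0.16 (R 4.3.3) with TMM factors and Benjamini-Hochberg adjustment over all genes tested at 0.05, the group being the only term. The standard error is the absolute log2 fold change over the square root of F, and the 95% interval from the t distribution with the degrees of freedom of the fit. The code was tested on simulated data. Differences of log2 count ratios were tested by exact permutation over 70 choices of libraries with adjustment over the 6 ratios. With so few choices, a ratio with fully separate groups could not pass alone after that adjustment. The lack of a pass among the ratios therefore decides little. DESeq2 1.42.0, limma 3.58.1 on log2(CPM + 1) or log2(CPM + 0.5), other scalings, no filter and the omission of each library were alternatives. The study used limma as well, and the pseudocount and the TMM scaling are choices made here.

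CPM values carry the TMM factors, and 3 counts were worth 0.308 to 0.389 CPM. Levels per kb used the union of exons in GENCODE basic transcripts, and coordinates are those of RefSeq for GRCm38.p6, the build of mm10. Every member was named. Values of all libraries were due for members with an adjusted p under 0.05 and an absolute log2 fold change of at least 0.5 and for Nfe2l2, Keap1, Gpx4, Sod1 and Fth1, and those of the other called members were added after their values were seen. Of each pathway list at most 3 called genes per direction with at least 5 CPM in the higher group were named; Tfrc was added after its value was seen, and markers were named from their lists. Of the 183 pathway genes, 11 were found through older symbols. A comparison of protein sequences was not run, and not all overlaps between genes are reported here. The members and the lists were chosen with earlier results of these data known. The labels record no sequencing batch, so a batch aligned with the groups cannot be told apart from them.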

Additional observations from a re-analysis of the deposited data

Results flagged for a closer look

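Among 96 groups of 4 libraries, formed by the CPM of each member and the ratios in each group, 2 held a library that stood apart from the other 3 by Dixon's criterion, where chance gives about 1 in 20. Txn1 was at 282.9 CPM in new AML replicate 3, against 216.8 to 224.6 CPM in the other new AML libraries. Txnrd1 was at 132.3 CPM in aggressive AML replicate 3, against 162.5 to 168.4 CPM in the other aggressive AML libraries. Both genes had no call in the comparison of the groups.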

How the results depend on the processing

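The 9 calls held under DESeq2, limma with either pseudocount, DESeq2 size factors, total counts without TMM factors, no filter on low counts and the replicate block. The numbers of members called higher and lower were 6 and 3 under these, except 7 and 3 with DESeq2, which added Gsto1, and with the block, which added Txn1. The genes called overall ranged from 2274 to 2538. Leaving out 1 library gave 4 to 9 members higher, 1 to 3 lower, a median log2 fold change of -0.0007 to 0.036 and 1534 to 2381 genes called overall. The fewest lower members, 1, came without aggressive AML replicate 1 or 2 or new AML replicate 2. Gsr, Aifm2, Mgst1, Prdx6 and Ncf4 were called in all 8 such fits.

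Whether the replicate numbers pair the libraries was not tested and stays undecided. The correlations of same-numbered deviations were 0.0967, -0.0399, -0.0654 and 0.204, the last being the highest of all pairs. Not every library correlated best with its own number. With the replicate number as a block, 2367 genes were called.

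No log2 ratio passed its test with 10 added to the counts or with the sign-flip test over replicate numbers (replicate block), whose smallest p here was 0.125, the least it can give. Without 1 library, the difference of the Sod2 to Sod1 ratio ran from -0.0058 to 0.082 and the other ratio differences kept their sign. The sign of an uncalled member turned only near 0. Cat was at 0.0012 with DESeq2 size factors and 0.0012 with DESeq2. Without 1 library, log2 fold changes ran from -0.011 to 0.052 for Nfe2l1, -0.148 to 0.016 for Nfe2l2, -0.026 to 0.072 for Gclc, -0.051 to 0.029 for Gpx1, -0.122 to 0.035 for Gpx4, -0.167 to 0.0022 for Gstp1, -0.085 to 0.086 for Mgst2, -0.027 to 0.102 for Prdx1, -0.107 to 0.018 for Prdx2, -0.020 to 0.118 for Prdx3, -0.013 to 0.125 for Txnrd1, -0.0086 to 0.125 for Txnrd2, -0.055 to 0.041 for Cat, -0.032 to 0.161 for Ireb2, -0.113 to 0.029 for Ncoa4 and -0.027 to 0.098 for Ncf1. The cause was not tested. Totals of 7805544 to 9697777 counts per library gave a median standard error of 0.0955 over the members, and Nqo1 rests on 9 to 40 reads per library.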
